A study of Caenorhabditis elegans with 15 samples.

Results

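The genes described here are the aquaporins aqp-1 to aqp-8 and the glycerol synthesis genes gpdh-1 and gpdh-2 of C. elegans. They were chosen by name, with earlier results of these data known, and each was read by probe sets of the array annotated to that gene alone. All 10 genes had such a probe set, 12 probe sets in all, among 22548 probe sets tested and 17118 genes with a probe set of their own. Where a gene had more than 1 probe set, the one with the highest mean over the 15 arrays was used. RNA of whole worms was hybridised to Affymetrix C. elegans Genome Arrays, 3 arrays for each of 5 groups. The groups were N2, the wild type strain, on vehicle, rapamycin or allantoin, and eat-2 mutants (strain DA465) on vehicle or rapamycin. Rapamycin is an inhibitor of the TOR kinase, allantoin is a product of purine breakdown, and eat-2 mutants lack a pharyngeal acetylcholine receptor, pump slowly and eat less, which makes them a genetic model of caloric restriction. All groups had 2% DMSO, were kept at 20 °C, were moved to the test plates at the L4 stage and were collected 72 h later. The worms were washed off the plates with distilled water before lysis. No source used here says whether the 3 replicates of a group were separate cultures, so the p-values measure the spread between these samples, which may be technical, and it is not stated whether the array plates held FUDR, a drug that stops egg production.

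Aquaporins are membrane channels that let water cross cells along an osmotic gradient, and a subgroup, the aquaglyceroporins, also passes glycerol. Glycerol is the main organic osmolyte of C. elegans. Worms in hypertonic surroundings build it up through glycerol-3-phosphate dehydrogenase, the rate-limiting enzyme of its synthesis, and the gpdh-1 gene is a standard reporter of that response. In worms, aqp-1 is an aquaglyceroporin that glucose feeding lowers through the transcription factors DAF-16 and HSF-1.

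The values are log2 signals after RMA, a method that corrects background, normalizes arrays to each other and summarises the probes of a set, so a difference of 1 is a 2-fold change. They ran from 3.14 to 14.86 over all probe sets, and array medians lay between 6.79 and 7.06. The N2 vehicle arrays stood apart: their correlations with each other were 0.967 to 0.982 over all probe sets, against 0.991 or more within each other group. The median SD within this group was 0.394 over the 10 genes and 0.210 over all probe sets, against 0.129 to 0.198 and 0.0949 to 0.121 in the other groups. Every comparison with N2 vehicle rests on these 3 arrays. The probe set of eat-2 itself read 5.19 to 5.47 in N2 rapamycin and 5.22 to 5.47 in eat-2 vehicle worms, so it did not check the strain labels. In whole worms, fewer cells of a type and less RNA per cell cannot be told apart.

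gpdh-1 had the second widest range of group means among the 10 genes, 2.25 on the log2 scale. It read 7.81, 7.47 and 7.46 on N2 rapamycin arrays and 7.88, 7.89 and 7.91 in eat-2 vehicle. It read 9.20, 9.32 and 10.31 on allantoin in N2 and 9.72, 10.35 and 9.40 on rapamycin in eat-2. These groups fell into a low pair and a high pair with a gap of more than 1 between them. The N2 vehicle arrays, at 10.60, 9.56 and 7.08, covered the whole range, with replicate 1 above every other array of the series and replicate 3 below every other.

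In eat-2 worms rapamycin raised gpdh-1 from a mean of 7.89 to 9.83, a log2 change of 1.94 (standard error 0.22, 3.83-fold, n = 3 per group, limma adjusted p = 0.00506). All 14 other settings gave a rise of at least 1.67 on the log2 scale. Their adjusted p-values, from limma or an unmoderated test, ran up to 0.0808, so the adjusted p was not passed in every setting. On rapamycin, gpdh-1 was 4.74-fold higher in eat-2 than in N2 (log2 change 2.25, standard error 0.23, limma adjusted p = 8.80e-05). In N2 it was 4.08-fold lower on rapamycin than on allantoin (log2 change -2.03, standard error 0.26, limma adjusted p = 0.000179). Against N2 vehicle its changes were -1.50 on rapamycin, 0.53 on allantoin and -1.19 in eat-2, and none passed the test. Their 95% intervals ran from -3.53 to 0.53, from -1.65 to 2.71 and from -3.27 to 0.88. Without N2 vehicle replicate 3 the change of gpdh-1 on rapamycin in N2 became -2.50 (limma adjusted p = 0.0433) and that in eat-2 became -2.19 (limma adjusted p = 0.0990). Each was past the study's threshold of an unadjusted p under 0.05 and more than 2-fold, and the change on allantoin turned to -0.47. Without replicate 1 the changes were -0.74 on rapamycin, -0.43 in eat-2 and 1.28 on allantoin. Without replicate 2 they were -1.26, -0.95 and 0.77, and none of the changes in these fits was past the study's threshold.

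gpdh-2, which encodes the other worm enzyme of this step in the set, moved within 0.386 between group means. It read 12.67, 12.79 and 12.91 on allantoin in N2 against 12.43, 12.41 and 12.36 on rapamycin. These groups did not overlap, as was so for 68.2% of all probe sets. The other means were 12.47 in N2 vehicle (12.06 to 12.69), 12.52 in eat-2 vehicle (12.48 to 12.55) and 12.52 in eat-2 on rapamycin (12.43 to 12.61). The difference between rapamycin and allantoin, -0.39 (standard error 0.09, limma adjusted p = 0.00443), was under 2-fold, and a second probe set gave -0.51 (limma adjusted p = 0.000612). Over all other settings the difference ran from -0.59 to -0.18, with limma adjusted p-values up to 0.116. The name endings of both probe sets mark probes that can bind more than 1 transcript. In eat-2 worms gpdh-2 differed by 0.00 between rapamycin and vehicle, with an interval from -0.18 to 0.18, where gpdh-1 changed by 1.94.

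aqp-1 had the widest range of group means of the 10 genes, 3.28 on the log2 scale. It read 11.54, 11.82 and 11.36 in eat-2 vehicle and 9.06, 8.11 and 9.11 in eat-2 on rapamycin. It read 8.31, 8.36 and 8.21 on allantoin in N2, the lowest group, and 10.10, 9.84 and 10.001 on rapamycin in N2. The N2 vehicle arrays read 8.93, 9.81 and 11.31. The order of means was eat-2 vehicle, N2 vehicle, N2 rapamycin, eat-2 rapamycin and N2 allantoin. N2 vehicle and N2 rapamycin, next to each other in that order, differed by 0.04 with an interval from -1.40 to 1.33, and the arrays of the 2 lowest groups overlapped.

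Rapamycin lowered aqp-1 in eat-2 worms, the largest change among the 10 genes in that comparison, with a log2 change of -2.82 (standard error 0.28, 7.04-fold, limma adjusted p = 0.00356). On rapamycin, aqp-1 was 2.33-fold lower in eat-2 than in N2 (log2 change -1.22, standard error 0.25, limma adjusted p = 0.00354). In N2 it was 3.22-fold higher on rapamycin than on allantoin (log2 change 1.69, standard error 0.09, limma adjusted p = 1.49e-06). Without eat-2 rapamycin replicate 2, the array at 8.11, the strain difference on rapamycin was -0.90, under 2-fold. Centring each array on its median gave -0.99.

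Against N2 vehicle, aqp-1 was lower on allantoin by a log2 change of -1.72 (standard error 0.57, 3.298-fold, unadjusted p = 0.0228 in limma, limma adjusted p = 0.236). It was higher in eat-2 vehicle by 1.56 (standard error 0.58, 2.94-fold, unadjusted p = 0.0359 in limma, limma adjusted p = 0.618). In both comparisons the groups did not overlap, as was so for 28.8% of all probe sets on allantoin and 14.4% in eat-2 vehicle. Neither change passed the adjusted p. The allantoin call was lost without any 1 of the allantoin replicates, with changes of -1.73, -1.75 and -1.68 for replicates 1 to 3, and the change was -2.26 without N2 vehicle replicate 1 and -1.08 without replicate 3. The eat-2 call was lost without any 1 of the eat-2 replicates (1.57, 1.43 and 1.67) and without N2 vehicle replicate 1 (1.02) or 2 (1.45), and the change was 2.20 without N2 vehicle replicate 3.

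**Figure D1:**
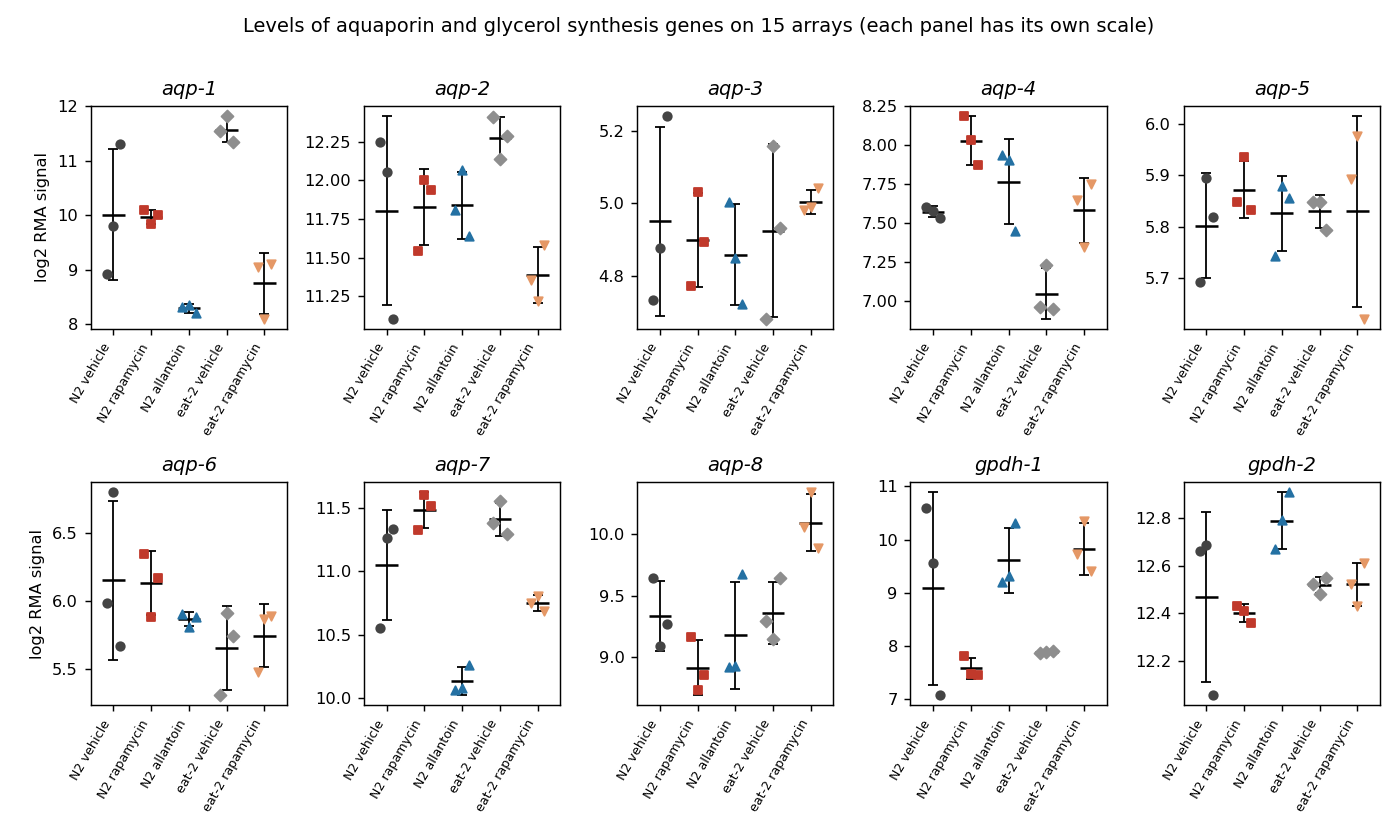
Log2 RMA signal of the 10 genes on 15 arrays, 1 panel per gene with its own scale. Points are arrays in the order of replicates 1 to 3, bars are group means and whiskers are SDs (n = 3). The 2 groups with the highest mean of gpdh-1, N2 allantoin and eat-2 rapamycin, have the lowest means of aqp-1, and the N2 vehicle arrays spread over most of the range of both genes.

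The levels of aqp-1 and gpdh-1 ran in opposite order between arrays of the N2 vehicle group, but not in every group. Replicates 1, 2 and 3 read 8.93, 9.81 and 11.31 for aqp-1 and 10.60, 9.56 and 7.08 for gpdh-1. In eat-2 on rapamycin, replicate 2 had the lowest aqp-1 of that group, 8.11, and the highest gpdh-1, 10.35. On allantoin in N2, replicate 3 had the lowest aqp-1, 8.21, and the highest gpdh-1, 10.31, while replicate 2 was above replicate 1 for both genes. In N2 rapamycin, replicate 1 had both the highest aqp-1, 10.10, and the highest gpdh-1, 7.81. In the 3 arrays of N2 rapamycin, at 9.84 to 10.10 for aqp-1, gpdh-1 was lower than on N2 vehicle replicate 2 at an aqp-1 of 9.81, so like levels of aqp-1 went with unlike levels of gpdh-1.

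**Figure D2:**
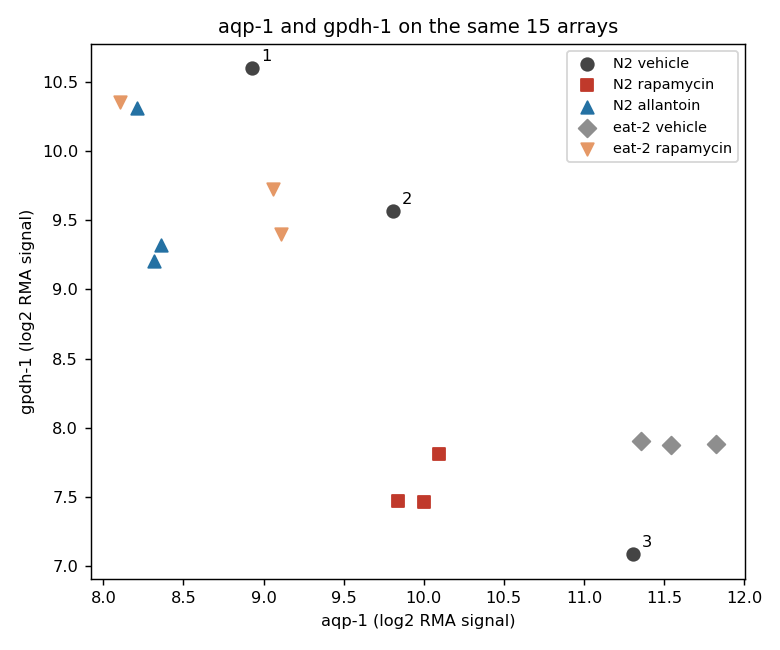
Log2 RMA signal of aqp-1 (x axis) against gpdh-1 (y axis), 1 point per array, with N2 vehicle points labelled by replicate. eat-2 vehicle arrays sit at the lower right, N2 allantoin and eat-2 rapamycin arrays at the upper left, and N2 vehicle arrays run from 1 corner to the other.

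aqp-7, which groups by sequence with the aquaglyceroporins, was also lowest on allantoin in N2 and next lowest in eat-2 on rapamycin. It read 10.06, 10.08 and 10.26 on allantoin in N2 and 10.75, 10.81 and 10.69 in eat-2 on rapamycin. It read 11.32, 11.60 and 11.52 on rapamycin in N2, 11.38, 11.56 and 11.30 in eat-2 vehicle and 10.55, 11.26 and 11.33 in N2 vehicle. The allantoin arrays lay below all other arrays of the series.

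aqp-7 was 2.55-fold higher on rapamycin than on allantoin in N2 (log2 change 1.35, standard error 0.10, limma adjusted p = 7.39e-06). It fell on rapamycin in eat-2 by 0.66 on the log2 scale (standard error 0.09, limma adjusted p = 0.00732). It was lower in eat-2 than in N2 on rapamycin, with a log2 change of -0.73 (standard error 0.10, limma adjusted p = 0.000394). Against N2 vehicle, its change on allantoin was -0.91 (standard error 0.22, unadjusted p = 0.00605 in limma, limma adjusted p = 0.236), under the 2-fold limit. Without N2 vehicle replicate 1 that change was -1.16 (limma adjusted p = 0.00262), in a fit where 4606 probe sets passed the adjusted p. Without N2 vehicle replicate 2 or 3 it was -0.81 and -0.77 (limma adjusted p = 0.392 and 0.324). Leaving out any 1 allantoin replicate gave limma adjusted p-values of 0.379 to 0.544.

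aqp-8, a channel of the excretory canal, the tubular cell through which worms shed water, was highest in eat-2 on rapamycin. It read 10.06, 10.34 and 9.89 there, above all other arrays, and 9.29, 9.15 and 9.64 in eat-2 vehicle. The N2 groups read 9.16, 8.73 and 8.85 on rapamycin, 8.92, 8.93 and 9.68 on allantoin and 9.64, 9.09 and 9.27 on vehicle. Rapamycin raised it in eat-2 by 0.73 on the log2 scale (standard error 0.16, limma adjusted p = 0.0312). Without replicate 1 or 2 of either eat-2 group the limma adjusted p was 0.0529 to 0.101. On rapamycin it was 2.27-fold higher in eat-2 than in N2 (log2 change 1.18, standard error 0.15, limma adjusted p = 0.000309), and cyclic loess normalization gave 0.95, under 2-fold.

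Of the list of 10 canal genes, 9 were measured. In eat-2 on rapamycin against vehicle 0 were higher and 1 was lower by limma's adjusted p, which 13.8% of all probe sets passed. Of the 9, 4 had an unadjusted p under 0.05, and the median change was -0.04. Between eat-2 and N2 on rapamycin 6 of the 9 were lower by limma's adjusted p, near the 58% of all probe sets that passed it in either direction, with a median of -0.71 where aqp-8 had 1.18, and exc-5, a canal gene needed for tubule shape, had -2.02. The mean level of the list was 8.69 in N2 rapamycin (8.58 to 8.76 by array), 8.11 in eat-2 rapamycin (8.07 to 8.18), 8.13 in eat-2 vehicle (8.05 to 8.18), 8.09 in N2 allantoin (8.04 to 8.12) and 8.28 in N2 vehicle (8.08 to 8.55). None of these markers had a group mean below the 25th percentile of probe sets.

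aqp-2 had 2 probe sets, and both name endings mark probes that can bind more than 1 transcript. It read 12.41, 12.14 and 12.28 in eat-2 vehicle and 11.35, 11.22 and 11.58 in eat-2 on rapamycin. The N2 groups had means of 11.80 on vehicle (SD 0.61), 11.83 on rapamycin (SD 0.25) and 11.84 on allantoin (SD 0.22), and they overlapped one another. Rapamycin lowered it in eat-2, with a log2 change of -0.89 (standard error 0.12, limma adjusted p = 0.00696), and its second probe set gave -0.999 (limma adjusted p = 0.00651). Between the strains on rapamycin it was lower in eat-2 by a log2 change of -0.44 (standard error 0.15, limma adjusted p = 0.0320), while its second probe set gave -0.23 (limma adjusted p = 0.159), and without eat-2 rapamycin replicate 1 or 2 or N2 rapamycin replicate 2 or 3 the limma adjusted p of the first was 0.0707 to 0.107. Over all other settings this change ran from -0.64 to -0.21, with limma adjusted p-values up to 0.206.

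aqp-4, a water channel of the intestine, was lowest in eat-2 vehicle. It read 6.96, 7.23 and 6.95 there and 7.65, 7.35 and 7.75 in eat-2 on rapamycin. It read 7.60, 7.58 and 7.54 in N2 vehicle, 8.19, 8.03 and 7.87 in N2 on rapamycin and 7.94, 7.90 and 7.45 on allantoin. Unlike for the other genes above, the N2 vehicle arrays were its tightest group, with an SD of 0.0351.

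Rapamycin raised aqp-4 in eat-2 by 0.53 on the log2 scale (standard error 0.13, limma adjusted p = 0.0434), and without replicate 1 or 3 of either group the limma adjusted p was 0.119 to 0.144. In N2 its change on rapamycin was 0.46 (standard error 0.11, limma adjusted p = 0.0531), and all 3 rapamycin arrays were above all 3 vehicle arrays. The arrays of these groups did not overlap for 39.9% of all probe sets. On rapamycin aqp-4 was lower in eat-2 than in N2 by a log2 change of -0.45 (standard error 0.13, limma adjusted p = 0.0195, and 0.0672 and 0.0510 without N2 rapamycin replicate 1 or 2). Over all other settings this change ran from -0.53 to -0.22, with limma adjusted p-values up to 0.1705. In eat-2 vehicle aqp-4 stood 0.52 below N2 vehicle, a log2 change of -0.52 that had an unadjusted p of 0.00277 in limma and a limma adjusted p of 0.359. Of 10 intestine markers, 1 passed limma's adjusted p in eat-2 on rapamycin, as higher, against 13.8% of all probe sets. The median change of these markers was -0.13. The mean level of that list was 10.42 in both eat-2 groups (10.37 to 10.45 on vehicle and 10.35 to 10.53 on rapamycin), 10.65 in N2 rapamycin (10.61 to 10.74), 9.93 in N2 allantoin (9.80 to 10.14) and 10.28 in N2 vehicle (10.02 to 10.59).

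The other aquaporins gave little signal. aqp-3 had a mean of 4.93 over the 15 arrays and lay under 5.14, the 25th percentile of all probe set means, on every array of the rapamycin and allantoin groups and on 2 of 3 arrays of each vehicle group. aqp-5 had group means between 5.801 and 5.87, a range of 0.0705 that was smaller than the SD within N2 vehicle, 0.103. aqp-6 had group means from 5.65 in eat-2 vehicle to 6.15 in N2 vehicle, where its arrays read 5.98, 6.80 and 5.67. None of the 3 passed either threshold in any comparison, and the widest change among them was -0.50, of aqp-6 in eat-2 against N2 on vehicle. The related channels aqp-10 and aqp-11, outside the set, also passed neither threshold in any comparison, with changes between -0.50 and 0.24.

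Set against all probe sets, the members moved as follows, where "called" means an unadjusted p under 0.05 in limma and a change over 2-fold. On allantoin in N2, 1 of 10 was called (aqp-1, lower) against 4.05% of all probe sets, and 0 of 10 passed the adjusted p against 0%, although 2 had an unadjusted p under 0.05. On rapamycin in N2, limma called 0 of 10 against 8.41% and 0 passed the adjusted p against 9.38%. The 2116 probe sets behind that share were 0 without N2 rapamycin replicate 3, 32 without replicate 1, 102 without replicate 2, 325 without N2 vehicle replicate 3 and 6889 without N2 vehicle replicate 2. In that comparison 1 of the 10, aqp-4, had an unadjusted p under 0.05, an unmoderated test also called 0, and the members' median absolute change was 0.0690 against 0.253 over all probe sets. In eat-2 against N2 on vehicle, 1 was called (aqp-1, higher) against 1.52%, and 0 passed the adjusted p against 0.0399%, with 2 at an unadjusted p under 0.05 in limma.

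On rapamycin in eat-2, 2 of 10 were called (gpdh-1 higher, aqp-1 lower) against 3.06% of probe sets, and 6 passed the adjusted p (3 higher, 3 lower) against 13.8%. In these 6 genes the rapamycin and vehicle arrays did not overlap, as was so for 36.7% of all probe sets. The median absolute change of the 10 was 0.599 against 0.156 over all probe sets. The 4 other genes, aqp-3, aqp-5, aqp-6 and gpdh-2, changed by at most 0.0908 on the log2 scale.

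**Figure D3:**
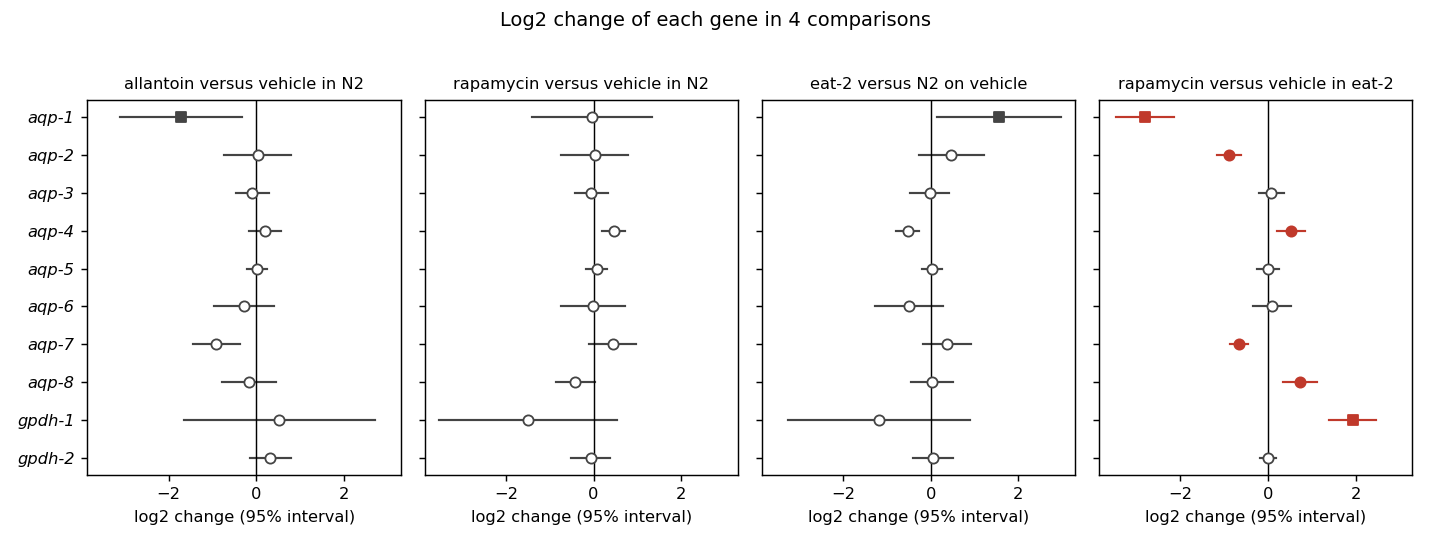
Log2 change of each gene in 4 comparisons, first group minus second, with 95% intervals from limma. Red marks an adjusted p under 0.05, and filled squares mark changes past the study's threshold. The widest intervals are those of aqp-1 and gpdh-1 in the 3 comparisons with N2 vehicle, and 6 genes are red on rapamycin in eat-2.

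Comparisons without N2 vehicle or eat-2 vehicle gave the most calls over all probe sets. Between rapamycin and allantoin in N2, 3 of 10 were called (aqp-1 and aqp-7 higher on rapamycin, gpdh-1 lower) against 20.4%, and 4 passed the adjusted p against 61.3%. Between eat-2 and N2 on rapamycin, 3 were called (gpdh-1 and aqp-8 higher in eat-2, aqp-1 lower) against 18.7%, and 6 passed the adjusted p against 58% of probe sets. By the adjusted p these shares of members were near or under those of all probe sets. Both comparisons use the same N2 rapamycin arrays, and the 3 comparisons with N2 vehicle share those controls.

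The change on rapamycin differed between the strains for 4 of the 10 genes, against 13.7% of probe sets called and 24.4% at the adjusted p. This test takes the change in eat-2 minus the change in N2 over 12 arrays. For gpdh-1 the changes were 1.94 in eat-2 and -1.50 in N2, a difference of 3.44 (standard error 0.95, limma adjusted p = 0.0265), and for aqp-1 they were -2.82 and -0.04, a difference of -2.78 (standard error 0.68, limma adjusted p = 0.0174). For aqp-8 they were 0.73 and -0.42, a difference of 1.15 (standard error 0.26, limma adjusted p = 0.0131), and for aqp-7 -0.66 and 0.43, a difference of -1.098 (standard error 0.26, limma adjusted p = 0.0141). aqp-4 had changes of 0.53 in eat-2 and 0.46 in N2, with a difference of 0.08 and an interval from -0.32 to 0.47.

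The differences rest in part on the wide N2 vehicle group. Without N2 vehicle replicate 3 they were 4.44 for gpdh-1 and -3.43 for aqp-1, and without replicate 1 they were 2.68 and -2.24, all at limma adjusted p-values between 0.000690 and 0.0302. Leaving out an array of another group gave limma adjusted p-values for gpdh-1 of 0.0426 to 0.0611, above 0.05 in 6 of 9 fits, with every fit past the study's threshold. Without N2 vehicle replicate 1, the differences of aqp-7 and aqp-8 were -0.85 and 0.999, just under 2-fold, at limma adjusted p-values of 0.00569 and 0.0205. With array weights they were -0.97 and 0.96, and the difference was -0.91 for aqp-7 with arrays centred on their medians and 0.95 for aqp-8 with cyclic loess, all under 2-fold.

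**Figure D4:**
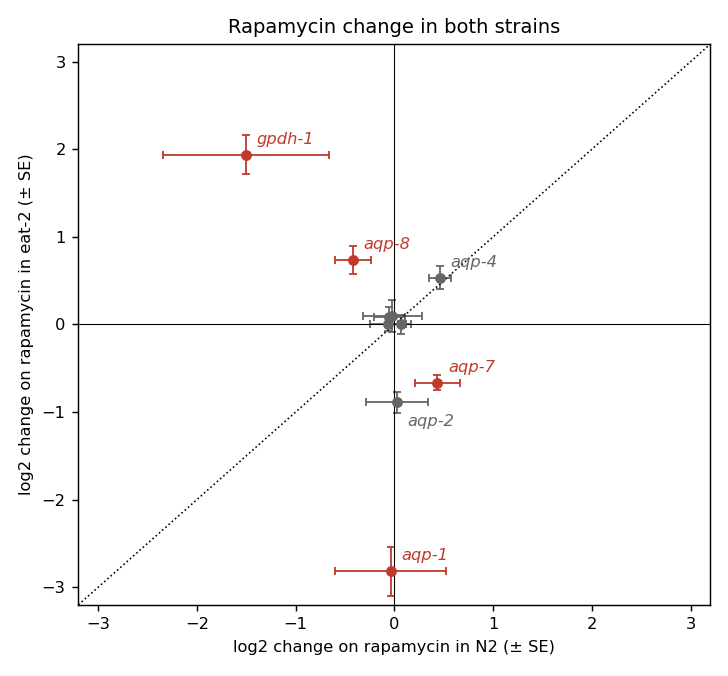
Log2 change on rapamycin in N2 (x axis) against that in eat-2 (y axis) for the 10 genes, with standard errors (n = 3 per group). The dotted line marks equal change, and red marks a difference between strains at an adjusted p under 0.05. gpdh-1 and aqp-8 lie above the line, aqp-1 and aqp-7 below it, and aqp-4 near it.

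Other genes of osmotic balance were read from lists chosen by function. hmit-1.1, a proton-coupled inositol transporter that hypertonic stress induces in worms, was highest in the same 2 groups as gpdh-1. It read 11.22, 11.44 and 11.17 in eat-2 on rapamycin and 10.98, 11.06 and 11.29 on allantoin in N2, above all arrays of the other groups. It read 9.54, 9.17 and 8.93 on rapamycin in N2, 10.89, 9.73 and 10.12 in eat-2 vehicle and 10.79, 9.96 and 8.81 in N2 vehicle. In N2 vehicle its order over the replicates was that of gpdh-1.

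hmit-1.1 rose on rapamycin in eat-2 by 1.03 (standard error 0.28, limma adjusted p = 0.0534), on allantoin in N2 by 1.26 (standard error 0.48, limma adjusted p = 0.242) and between strains on rapamycin by 2.06 (standard error 0.16, limma adjusted p = 2.02e-05), each past the study's threshold. Of the 7 genes for osmolytes and osmotic response, tps-1, a trehalose-6-phosphate synthase, and lea-1, a late embryogenesis abundant protein linked to drying and osmotic stress, went the other way from hmit-1.1 in eat-2 on rapamycin. Their log2 changes were -1.05 and -1.24 (limma adjusted p = 0.00516 and 0.00972). In that comparison 1 of the 7 was called higher and 2 lower, against 3.06% of all probe sets called, so these genes did not move as 1 group. hmit-1.2, like hmit-1.1, had its 2 highest means on allantoin in N2 and on rapamycin in eat-2, 9.27 and 9.46. In the same 2 groups hmit-1.3 (8.91 and 9.02), tps-1 (8.52 and 8.43) and tps-2 (8.56 and 8.27) had their 2 lowest means. nlp-29, an epidermal antimicrobial peptide gene that osmotic stress also induces, was lower on allantoin in N2, with a change of -1.21 (standard error 0.38, limma adjusted p = 0.236).

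**Figure D5:**
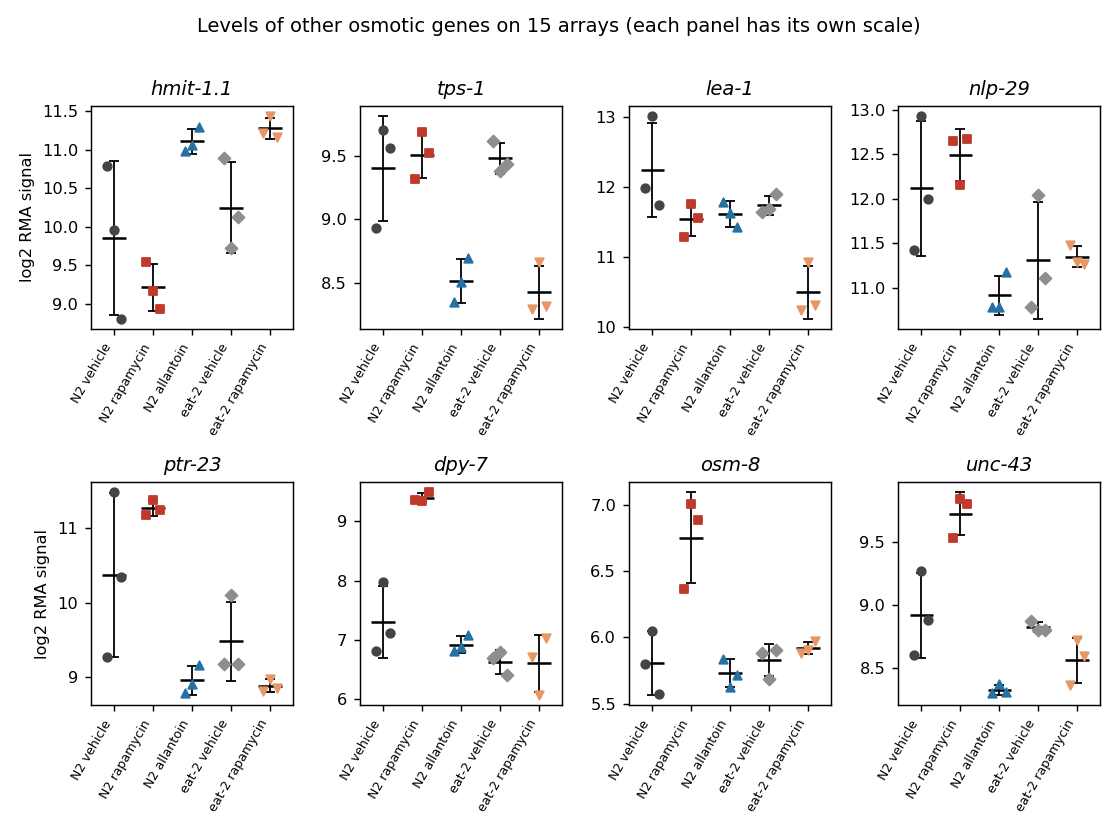
Log2 RMA signal of 8 other genes of osmotic balance on 15 arrays, each panel with its own scale, with group means and SDs (n = 3). hmit-1.1 is highest and tps-1 lowest in N2 allantoin and eat-2 rapamycin, while dpy-7, ptr-23, osm-8 and unc-43 are high in N2 rapamycin.

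The collagens of the annular furrows of the cuticle, whose loss turns gpdh-1 on in worms, were high on rapamycin in N2. All 5 measured of 6 listed were called higher and passed the adjusted p there, against 8.41% and 9.38% of all probe sets. Their median change was 2.09 against -0.02 over all probe sets. dpy-9 rose by 2.13 (standard error 0.30, limma adjusted p = 0.0220) and dpy-7 by 2.10 (standard error 0.29, limma adjusted p = 0.0220), and dpy-7 read 9.37, 9.35 and 9.49 on rapamycin against 6.82, 7.98 and 7.12 on vehicle. In eat-2 on rapamycin limma called 0 of the 5 against 3.06% of all probe sets, with a median of 0.24. Of the 5, 2 had an unadjusted p under 0.05 and 1 passed the adjusted p, as higher, against 13.8%. The strain difference in the change was called lower for all 5, against 13.7% of all probe sets called in either direction. Its median was -1.70, and dpy-7 had -2.12 (limma adjusted p = 0.00721). The mean level of the 5 was highest in N2 rapamycin, 9.53, and lowest in eat-2 vehicle, 7.05, and gpdh-1 was low in both groups, at 7.46 to 7.81 and 7.88 to 7.91. Among genes raised by rapamycin in N2, the paper reports enrichment for the moulting cycle, cuticle development and body morphogenesis. Other collagens were not read here, so the rise cannot be called particular to this list. A link between the collagen levels and gpdh-1 was not tested.

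Of the 9 measured of 10 osmotic regulators, ptr-23, a patched-related gene whose loss suppresses the osmotic resistance of osm-8 mutants, fell on allantoin in N2 by 1.42 on the log2 scale (standard error 0.53, limma adjusted p = 0.241). Between eat-2 and N2 on rapamycin it had a change of -2.39 (limma adjusted p = 1.08e-06), and unc-43, a calcium/calmodulin-dependent kinase, had -1.16 (limma adjusted p = 0.000128). osm-8, a secreted mucin-like protein that keeps gpdh-1 low, was called higher on rapamycin than on allantoin in N2, with a change of 1.02 (limma adjusted p = 0.000534). Against vehicle in N2, osm-8 rose on rapamycin by 0.95 (limma adjusted p = 0.0460), under 2-fold. There 0 of the 9 were called by limma against 8.41% of all probe sets, and 1 passed the adjusted p against 9.38%. Of the 9, 4 had an unadjusted p under 0.05, and the median change was 0.47 against -0.02 over all probe sets. In eat-2 on rapamycin 0 of these 9 were called by limma against 3.06%, while 5 had an unadjusted p under 0.05. By the adjusted p 1 was higher and 1 lower, against 13.8% of all probe sets.

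Of the 9 measured of 12 other genes of glycerol and glycerolipid metabolism, 0 were called by limma in any of the 3 comparisons with N2 vehicle or on rapamycin in eat-2. On rapamycin 4 had an unadjusted p under 0.05 in N2 and 2 in eat-2, with 1 of each lower by the adjusted p. In the other 2 comparisons 0 had an unadjusted p under 0.05. Of all probe sets, 4.05% were called on allantoin, 8.41% on rapamycin in N2, 1.52% in eat-2 vehicle and 3.06% on rapamycin in eat-2. The adjusted p on rapamycin was passed by 9.38% of them in N2 and 13.8% in eat-2. lid-1, a partner of the fat lipase ATGL-1, had a change of -1.19 on rapamycin against allantoin in N2 (limma adjusted p = 5.56e-05), and acl-4, an acyltransferase acting on glycerol-3-phosphate, had -1.06 there (limma adjusted p = 6.07e-06). Of daf-2, daf-16 and hsf-1, which act upstream of aqp-1 in worms, 0 were called and 0 had an unadjusted p under 0.05 by limma on rapamycin in eat-2. There aqp-1 changed by -2.82, and 3.06% of all probe sets were called. Between rapamycin and allantoin in N2, daf-16, a forkhead transcription factor, had a change of 1.14 (limma adjusted p = 1.23e-05) and hsf-1, the heat shock factor, -0.79 (limma adjusted p = 5.44e-05), where aqp-1 had 1.69. Between eat-2 and N2 on rapamycin daf-16 had -0.91 (limma adjusted p = 0.000281) and hsf-1 0.68 (limma adjusted p = 0.000482), where aqp-1 had -1.22. Both comparisons use the N2 rapamycin arrays. A link between the RNA levels of these 3 genes and aqp-1 was not tested.

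The genes whose pattern over the 15 arrays was most like that of a member were found by Pearson's r, for the 3 members with the widest range of group means. These r values describe arrays that share groups, and carry no test. For aqp-1 they were adh-1, an alcohol dehydrogenase (r = 0.981), acs-2, an acyl-CoA synthetase of fatty acid oxidation (r = 0.979), and the transporter gene mfsd-8.5 (r = 0.974). acs-2 had means of 12.21 in eat-2 vehicle (SD 0.19) and 8.32 in eat-2 on rapamycin (SD 0.78), and 8.49 on allantoin in N2 (SD 0.14). For gpdh-1 they were the aldehyde dehydrogenase alh-9 (r = 0.965), C23H5.8 (r = 0.960) and the cytochrome P450 cyp-35A5 (r = 0.954). For aqp-7 they were the carbonic anhydrase cah-4 (r = 0.979), the cathepsin B-like protease cpr-4 (r = 0.971) and the phosphoethanolamine methyltransferase pmt-1 (r = 0.965).

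Markers of other cell types also moved between groups. Of 7 germline and oocyte genes, 6 were higher in eat-2 than in N2 on rapamycin by limma's adjusted p, with a median of 0.83, and their mean level ran from 10.88 in N2 rapamycin (10.86 to 10.90) to 11.81 in N2 allantoin (11.77 to 11.86), with 11.38 in N2 vehicle (11.05 to 11.64), 11.46 in eat-2 vehicle (11.27 to 11.58) and 11.78 in eat-2 rapamycin (11.74 to 11.81). Of 7 neuron genes 6 were lower in that comparison, with a median of -1.14, and their mean level was 9.56 in N2 rapamycin (9.49 to 9.62), 8.66 in eat-2 rapamycin (8.53 to 8.86), 8.60 in N2 allantoin (8.48 to 8.72), 8.93 in eat-2 vehicle (8.87 to 8.99) and 9.23 in N2 vehicle (8.96 to 9.62). Of 7 muscle genes 6 were lower there, with a median of -1.003, and their mean level was 9.69 in N2 rapamycin (9.39 to 9.89), 8.82 in eat-2 rapamycin (8.60 to 9.19), 8.88 in N2 allantoin (8.86 to 8.90), 8.76 in eat-2 vehicle (8.62 to 8.88) and 9.12 in N2 vehicle (8.68 to 9.54). In that comparison 58% of all probe sets passed the adjusted p. On rapamycin against vehicle in eat-2, 1 of 7 germline genes was higher by limma's adjusted p and 6 had an unadjusted p under 0.05, with a median change of 0.35 against 0.03 over all probe sets, and the list's mean levels in these groups did not overlap between arrays. There 13.8% of all probe sets passed limma's adjusted p, and 1 of 7 muscle genes was higher and 1 of 7 neuron genes lower by it. In each of these lists 2 genes had an unadjusted p under 0.05. Their part in the changes of the aquaporin and glycerol synthesis genes was not tested.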

How the data were processed

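Total RNA of whole worms was labelled and hybridised to Affymetrix C. elegans Genome Arrays, 15 in all, and the authors deposited 1 table of 22625 probe sets, whose log2 values came from RMA in their Affymetrix Expression Console. Versions of that program and of Transcriptome Analysis Console are not given in the sources used here. The 77 control probe sets were left out. Of the 22548 others, 20766 have 1 gene symbol in the platform annotation, 887 several and 895 none. All 10 genes matched a RefSeq gene entry. Some list genes were read by probe sets whose name endings mark probes that can bind more than 1 transcript. Among them were dpy-3, dpy-7, dpy-8, ptr-23, unc-43, lea-1, hmit-1.2, hmit-1.3, daf-16, hsf-1 and nlp-29. Where a list gene had more than 1 probe set, only the one with the highest mean was read.

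Groups were compared in pairs with limma 3.58.1 in R 4.3.3 on their own 6 arrays, and the strain difference in the change on rapamycin on 12, over all probe sets, with Benjamini-Hochberg adjusted p-values. The study's threshold (unadjusted p under 0.05, over 2-fold) defined a call. The number of arrays limits the precision. The procedure was tested on simulated data with known changes, with noise drawn for each probe set on its own. This did not cover shifts shared by many probe sets of an array. The genes and lists were chosen with earlier results of these data known. The named members are those that pass the study's threshold or an adjusted p under 0.05, with up to 4 genes per list and comparison past the study's threshold, and the 3 genes most like each of the 3 most variable members. Other settings were a fit over all 15 arrays (also with array weights), the replicate number as a replicate block, dropping the dimmest 25% of probe sets, centring on array medians, cyclic loess, an unmoderated test, the second probe set of aqp-2 and gpdh-2, and leaving out each array. Array numbers were not used to pair the samples in the reported fits. In eat-2 against N2 on vehicle, array deviations of like number had correlations of 0.45, 0.45 and -0.16 for replicates 1 to 3. aqp-10 and aqp-11, the per-array values of the lists and the level of eat-2 were added after the values were seen. No sequences were used here.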

Additional observations from a re-analysis of the deposited data

Results flagged for a closer look

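The change on rapamycin differed between the strains by limma's test of the difference itself for 4 of the 10 genes. Taken as eat-2 minus N2, the difference was 3.44 for gpdh-1, -2.78 for aqp-1, 1.15 for aqp-8 and -1.098 for aqp-7 on the log2 scale (limma adjusted p = 0.0265, 0.0174, 0.0131 and 0.0141). In all 4 genes the N2 part of the difference uses the N2 vehicle arrays, the group with the widest spread. The N2 vehicle arrays ran from 7.08 to 10.60 for gpdh-1 and from 8.93 to 11.31 for aqp-1, while the eat-2 vehicle arrays ran from 7.88 to 7.91 and from 11.36 to 11.82.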

How the results depend on the processing

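Of 332 single-gene checks under another setting, 312 kept their direction and their side of the study's threshold, 20 lost the call and 0 reversed. These checks count the call and not the adjusted p, so changes reported for their adjusted p alone could not lose a call. For aqp-4 on rapamycin in eat-2 all 14 checks kept their side, while its limma adjusted p reached 0.144. The members called on allantoin in N2, 1 in the fit reported, were 2 with array weights, 2 with cyclic loess, 0 by an unmoderated test and 0 to 2 when an array was left out. Those on rapamycin in N2, 0 as reported, were 1 with all 15 arrays in a single fit and 0 to 1 when an array was left out, 1 (gpdh-1) without N2 vehicle replicate 3. Those in eat-2 against N2 on vehicle, 1 as reported, were 0 with array weights, 0 by an unmoderated test and 0 to 2 when an array was left out. The other 4 comparisons kept their count of members called within 1.5 times under every setting run, though not always the same members: of the 4 called in the strain difference, 2 were shared among 3 with array weights, 3 among 4 with cyclic loess and 2 among 3 without N2 vehicle replicate 1. On rapamycin in eat-2, 6 members passed the adjusted p, 4 with all 15 arrays in a single fit, 4 with the block and 2 by an unmoderated test. With a replicate block the counts of members called in the 7 comparisons were 1, 0, 1, 2, 3, 3 and 4, as without it, but aqp-4 and aqp-8 on rapamycin in eat-2 then had limma adjusted p-values of 0.121 and 0.0965. Over all probe sets, those at the adjusted p went from 2116 to 156 with the block on rapamycin in N2. On rapamycin in eat-2 they went from 3118 to 1609. The block adds a term for a number that array deviations did not share in every comparison (correlations from -0.23 to 0.45). Median centring moved the median change of all probe sets from 0.05 to 0.15 on allantoin, from -0.02 to -0.12 on rapamycin in N2, from -0.07 to -0.27 between rapamycin and allantoin, from 0.10 to 0.33 between strains on rapamycin and from 0.04 to 0.23 in the strain difference. The cause of these moves was not tested. With 3 arrays a group, the spread of the N2 vehicle arrays limits what can be said of gpdh-1 and aqp-1 against N2 vehicle.

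Over all probe sets, on allantoin 913 probe sets were called, 1393 with array weights, 2047 without N2 vehicle replicate 1 and 315 by an unmoderated test. With all 15 arrays in a single fit, 2519 passed the adjusted p on allantoin, where 0 did on the 6 arrays, and aqp-1 was among them (limma adjusted p = 0.0372). Leaving out an array gave 337 to 2047 called on allantoin, 1378 to 3082 on rapamycin in N2 and 196 to 1144 in eat-2 against N2 on vehicle. It gave 1004 to 3229 at the adjusted p on rapamycin in eat-2, where 3118 passed, and 3267 to 8513 in the strain difference, where 5507 passed.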
